A study of Homo sapiens with 31 samples.

Results

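MALAT1, NEAT1, KCNQ1OT1 and TUG1 are long noncoding RNAs found in the nucleus. CCNL1, CCNL2, CLK1, CLK4, PNISR and NKTR are protein-coding genes known for transcripts that keep introns and are held back in the nucleus. These 10 genes were taken by symbol from a table of 74834 rows, each in all 31 libraries, and all 10 passed the filter for testing, a mean normalized value of at least 10. Their poly(A) RNA was sequenced 6 h after treatment in H460, a long-established line from a human lung carcinoma of the non-small cell kind. Per the labels, each sample was made from 2 wells. The labels do not say whether the replicates of a group came from separate days or cultures, so p-values here speak of the spread among these samples alone, part of which may be technical.

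Cells of the B87+DMKG+Nutlin-3 group (n = 4) received B87 (BAY87-2243) at 1 µM, dimethyl α-ketoglutarate at 5 mM and Nutlin-3 at 30 µM. Those of the B87+DMKG+Rita group (n = 4) received the same first pair with Rita at 50 µM. The B87+DMKG group (n = 4) had B87 at 1 µM with dimethyl α-ketoglutarate at 5 mM, and the DMKG (n = 4) and B87 (n = 4) groups had each of these alone at the same dose. Nutlin-3 (n = 3) and Rita (n = 4) were also given alone at 30 µM and 50 µM. Control cells (n = 4) were untreated. B87, an inhibitor, blocks complex I of the respiratory chain, DMKG is a cell-permeable ester of α-ketoglutarate, and Nutlin-3 and Rita are compounds that act on the p53 and MDM2 pair. The series' title names the reversal by MDM2 inhibitors of transcriptional effects of DMKG plus B87.

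MALAT1 lies in nuclear speckles, the bodies in which splicing factors gather, and NEAT1 is the scaffold of the neighbouring paraspeckles. The CLK kinases phosphorylate SR proteins, a family of splicing factors, and by this release them from speckles. L-type cyclins are partners of the kinase CDK11 and also reside in speckles. In many cells part of the CLK1 and CLK4 transcripts is stored in the nucleus with introns retained, to be spliced when a signal calls for it. These libraries held gene totals only, so retained introns, isoforms and the place of an RNA in the cell were not measured.

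The promoter windows of the genes that the results turn on are given first, to show how unlike their starts are. RefSeq's promoter table on GRCh38.p14 holds 10 windows for 8 of the 10 genes, each of 300 bases from 250 before to 50 after a transcript start. Capitals mark, on either strand, the letters TATAAA of a TATA box, CCAAT of a CCAAT box, GGGCGG of a GC box, TGACGTCA of a cyclic AMP response element and TGACTCA of an AP-1 element. They also mark CACGTG, an E-box, and ACGTG, the core letters of a hypoxia response element, which lie within CACGTG too. MALAT1 has windows for a pair of starts, at chr11:65497488-65497787 and chr11:65498795-65499094 on the plus strand. The window of TUG1 is chr22:30969015-30969314 on the plus strand, the first of a pair for CLK1, the one printed, is chr2:200864609-200864908 on the minus strand and that of CLK4 is chr5:178627001-178627300 on the minus strand.
MALAT1, first start: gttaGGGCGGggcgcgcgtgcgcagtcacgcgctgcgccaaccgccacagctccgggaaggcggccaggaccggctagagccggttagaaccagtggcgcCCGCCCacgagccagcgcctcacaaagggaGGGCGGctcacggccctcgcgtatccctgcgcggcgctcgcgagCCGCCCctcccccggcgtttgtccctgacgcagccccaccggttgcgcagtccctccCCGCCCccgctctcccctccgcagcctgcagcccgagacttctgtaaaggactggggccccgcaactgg
MALAT1, second start: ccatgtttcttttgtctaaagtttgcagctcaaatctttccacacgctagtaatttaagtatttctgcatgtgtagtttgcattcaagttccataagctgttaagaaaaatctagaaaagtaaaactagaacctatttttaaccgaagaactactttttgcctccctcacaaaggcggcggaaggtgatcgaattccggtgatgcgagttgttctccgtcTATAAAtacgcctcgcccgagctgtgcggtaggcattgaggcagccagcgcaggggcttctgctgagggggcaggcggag
TUG1: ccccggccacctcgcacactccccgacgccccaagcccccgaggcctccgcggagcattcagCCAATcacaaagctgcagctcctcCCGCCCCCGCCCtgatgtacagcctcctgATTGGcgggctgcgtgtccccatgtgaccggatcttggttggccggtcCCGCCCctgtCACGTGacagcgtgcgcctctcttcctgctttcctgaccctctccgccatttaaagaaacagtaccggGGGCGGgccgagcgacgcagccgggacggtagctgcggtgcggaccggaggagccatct
CLK1: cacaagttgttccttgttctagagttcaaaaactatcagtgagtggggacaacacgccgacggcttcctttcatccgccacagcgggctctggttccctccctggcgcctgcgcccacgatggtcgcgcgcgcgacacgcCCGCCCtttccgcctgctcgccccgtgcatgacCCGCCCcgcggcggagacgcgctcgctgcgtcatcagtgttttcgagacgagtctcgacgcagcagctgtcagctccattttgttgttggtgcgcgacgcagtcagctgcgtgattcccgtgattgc
CLK4: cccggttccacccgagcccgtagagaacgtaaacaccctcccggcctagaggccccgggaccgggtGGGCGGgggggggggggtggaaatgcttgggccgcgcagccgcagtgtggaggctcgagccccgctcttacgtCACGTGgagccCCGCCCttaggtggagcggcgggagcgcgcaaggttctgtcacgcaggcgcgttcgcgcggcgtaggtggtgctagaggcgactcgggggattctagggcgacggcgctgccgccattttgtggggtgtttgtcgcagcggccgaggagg
The first MALAT1 window is 73.7% G or C with 37 CpG pairs and 5 copies of GGGCGG. The second is 46% G or C with 14 CpG pairs, no GGGCGG and 1 TATAAA. Of the 35116 promoter windows of the table, 45% hold GGGCGG and 11.5% hold TATAAA. TUG1's window holds 2 copies of CCAAT, letters found in 34.6% of windows, and 1 of CACGTG, found in 7.26%. The second CLK1 window, chr2:200864512-200864811, overlaps the first and is alike in G and C content (64%, against 62.7% in the first) and in its 2 copies of GGGCGG. The CLK1 and CLK4 windows hold 2 copies of GGGCGG each, and CLK4 alone of the pair has CACGTG, 1 copy.

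The libraries held 33.4 M (B87, replicate 4) to 82.5 M (Rita, replicate 2) counted reads. Mitochondrially encoded RNA took 2.24% to 7.51% of reads in B87+DMKG, 3.34% to 3.67% in B87+DMKG+Nutlin-3, 2.47% to 3.33% in B87+DMKG+Rita, 2.42% to 5.39% in Nutlin-3, 2.69% to 4.76% in Rita and 1.49% to 2.15% in Control libraries. Other reads on rows with no symbol took 1.06% to 1.09% in B87+DMKG, 0.755% to 0.791% in B87+DMKG+Nutlin-3, 0.753% to 0.792% in B87+DMKG+Rita and 0.84% to 0.864% in Control. The part of these shifts in the results below was not tested. DMKG libraries stood in 2 pairs, with replicates 3 and 4 above replicates 1 and 2 for 8 of the 10 genes. The main values that rest on this group are therefore also given without each pair. DMKG replicates 1 to 4 held 43.0, 45.6, 53.8 and 80.5 M reads. Mitochondrial RNA took 1.97% to 2.48% of them, and other rows with no symbol 0.76%, 0.754%, 0.785% and 0.86%. The part of these differences in the split was not tested. Of the 6 epithelial markers KRT8, KRT18 and KRT19 were high (lowest library 44501, KRT18), EPCAM was between 28 and 85 and CDH1 at most 8.21 normalized counts. The 6 summed to 347571 to 417485 in B87+DMKG+Nutlin-3, 346191 to 394273 in B87+DMKG+Rita, 205915 to 314057 in B87+DMKG and 246180 to 280522 in Control. With either compound added to B87+DMKG all 5 tested ones rose (4 with Nutlin-3 and 3 with Rita at the same total per library), and their part in the results was not tested. Of the leukocyte markers, CD68 shares a row with EIF4A1 and other genes and cannot be read. CD14, PTPRC, CD3E and LYZ summed to 53.7 to 96.9 in B87+DMKG and 202 to 248 in Control libraries, mostly CD14, with PTPRC, CD3E and LYZ at most 14.3. The 5 endothelial markers summed to 32 to 66 in B87+DMKG and 9.55 to 21.4 in Control, with PECAM1, CDH5 and TEK at most 3.51. KDR, the 1 of them tested, reached 61.5, against a Control mean of 8.78. It was called higher in B87+DMKG than in Control. The 6 fibroblast markers summed to 1395 to 1584 in B87+DMKG and 1314 to 1452 in Control, mostly COL1A1 and COL3A1.

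The rows of 8 genes have the length of the gene or, for CCNL2 (14.8 against 13.6 kb) and PNISR (32.7 against 27.3 kb), are somewhat longer. Those of the other 2 cannot be read as that gene alone. The row that holds NEAT1 (GSHG0133750, with MIR612) runs over chr11:65188828-65836382 on hg19, 647.6 kb against 22.8 kb for the gene in GENCODE v29, and 37 other rows with a symbol lie inside it. SF3B2, which encodes a subunit of a spliceosomal particle, is the 1 coding gene of the 32 that RefSeq lists in that stretch without a row of its own. The row of CLK1 (GSHG0018263) spans 36.3 kb, chr2:201717732-201753999, against 11.7 kb for the gene. PPIL3, a cyclophilin gene, is CLK1's neighbour in RefSeq and has no row either. Reads of SF3B2 and PPIL3 may therefore be in these rows, and values below are called those of the NEAT1 row and the CLK1 row. MALAT1's own row lies wholly inside the NEAT1 row, and the pair may share reads. MALAT1 (GSHG0045807, chr11:65265233-65273989), TUG1 (GSHG0019953, chr22:31365197-31375381), KCNQ1OT1 (GSHG0033804, chr11:2629558-2721228) and CLK4 (GSHG0025318, chr5:178029666-178057616) lie on hg19 like all rows of the table. So do CCNL1 (GSHG0022186, chr3:156864292-156878549), CCNL2 (GSHG0001662, chr1:1319930-1334718), PNISR (GSHG0026796, chr6:99840526-99873221) and NKTR (GSHG0020732, chr3:42642106-42690232). Each row gives 1 value per gene, with no split into exons, introns or untranslated parts.

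Values are normalized counts, the reads of a gene divided by the size factor of its library. Differences are log2 fold changes ± SE from limma over all 31 libraries, and a gene was called where its adjusted p was under 0.05. Divided by exonic length, MALAT1 had the most normalized counts of the 8 genes in B87+DMKG cells, at 2144 per kb. In Control cells it had 129 per kb. These are counts of poly(A) RNA, and how much of each RNA was captured with it was not measured. PNISR came next in B87+DMKG cells at 215 per kb, against 80.5 in Control, and TUG1 stood at 137 per kb, against 111. KCNQ1OT1 was the lowest per kb throughout, at 8.1 in B87+DMKG and 1.76 in Control. CLK4 had 32.7 per kb in B87+DMKG cells and 111 in DMKG cells, against 55.1 in Control.

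MALAT1 rose in DMKG cells and further in B87+DMKG cells, was still above Control with Nutlin-3 added and was not called against Control with Rita added. It had 23333, 20771, 16395 and 15214 normalized counts in the 4 B87+DMKG libraries, against 1628, 857, 907 and 1161 in the Control libraries. Every B87+DMKG library lay above every library of the other 7 groups. The B87 libraries, at 1367, 1050, 887 and 992, overlapped the Control range. The log2 fold change was 4.08 ± 0.34 (SE, limma adjusted p = 2e-11) in B87+DMKG and 1.87 ± 0.34 (limma adjusted p = 5.2e-05) in DMKG, both against Control. In DMKG the libraries were far apart, at 2330, 1700, 6272 and 10531, yet each was above the highest Control library. Their SD on the log2 scale was 1.225, against 0.421 in Control. The SE of the DMKG value, from the shared spread, may therefore be too small. With B87+DMKG+Nutlin-3 the libraries had 8815, 7524, 5205 and 6626, above Control and below B87+DMKG without overlap (log2 fold change 2.65 ± 0.34 against Control, limma adjusted p = 8.7e-08). With B87+DMKG+Rita they had 1832, 1159, 2688 and 1608, which overlapped the Control libraries (0.66 ± 0.34, interval -0.04 to 1.36, limma adjusted p = 0.0952). The value passes the threshold without Control replicate 1 (0.85, limma adjusted p = 0.0476) or without B87+DMKG+Rita replicate 2 (0.86, limma adjusted p = 0.0451). It also passes under quantile normalization (0.80, limma adjusted p = 0.0438) and with only the groups compared (0.66, limma adjusted p = 0.0215). Since totals are scaled per library, fewer cells and less RNA per cell cannot be told apart here.

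KCNQ1OT1, an antisense RNA made within the imprinted KCNQ1 locus, rose in B87+DMKG cells and was lower again in both triple treatments. It had 870, 800, 576 and 725 normalized counts in B87+DMKG libraries, against 265, 113, 129 and 138 in Control libraries, with no overlap (log2 fold change 2.27 ± 0.40, limma adjusted p = 1.3e-05). With Nutlin-3 added the 4 libraries had 143, 141, 55.4 and 97.7, below those of B87+DMKG and in part below those of Control. With Rita added they had 293, 189, 401 and 205, also below every B87+DMKG library. Neither triple treatment was called against Control (-0.56 ± 0.40, limma adjusted p = 0.227, with Nutlin-3, and 0.77 ± 0.40, limma adjusted p = 0.0943, with Rita, which becomes 1.04 and 0.0349 without Control replicate 1). The value with Rita also passes under quantile normalization (0.93, limma adjusted p = 0.0359) and with only the groups compared (0.77, limma adjusted p = 0.0221). KCNQ1 itself, whose row holds KCNQ1OT1's, was at most 11.1 normalized counts in any library.

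TUG1, a long RNA known for its binding to chromatin regulators, was not called in B87+DMKG but fell in 4 other groups. Its B87+DMKG libraries had 1599, 1665, 1087 and 1216 normalized counts and the Control libraries 1286, 920, 1018 and 1265, which overlap (0.30 ± 0.18, limma adjusted p = 0.145). Rita libraries had 605, 527, 553 and 653, each below every Control library (-0.93 ± 0.18, limma adjusted p = 6.4e-05). With B87+DMKG+Nutlin-3 it had 462, 703, 387 and 594, and with B87+DMKG+Rita 492, 359, 495 and 418. Both sets lay below Control with no overlap, at -1.09 ± 0.18 (limma adjusted p = 5.4e-06) and -1.34 ± 0.18 (limma adjusted p = 1.5e-07). The DMKG libraries, at 533, 561, 755 and 1043, overlapped Control through replicate 4 (-0.67 ± 0.18, limma adjusted p = 0.00297).

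The NEAT1 row moved little. It had 22749 to 24374 normalized counts in B87+DMKG libraries, against 17580 to 19104 in Control (0.36 ± 0.06, limma adjusted p = 2.3e-06). In B87+DMKG+Nutlin-3 it had 22109 to 26292, above Control and reaching both below and above the range of B87+DMKG (0.43 ± 0.06 against Control, limma adjusted p = 1e-07). The SD between the 4 replicates was 0.045 in B87+DMKG, 0.123 in B87+DMKG+Nutlin-3 and 0.054 in Control on the log2 scale. With each library brought to the same total, the rises in DMKG (0.07), Rita (0.03) and B87+DMKG+Rita (0.11) were no longer called, with limma adjusted p of 0.272, 0.611 and 0.0636. Its difference of 0.01 between B87+DMKG+Rita and B87+DMKG, not called, turned to -0.23 at the same total and -0.21 under quantile normalization, both called (limma adjusted p of 2.3e-04 and 8.4e-04).

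**Figure D1:**
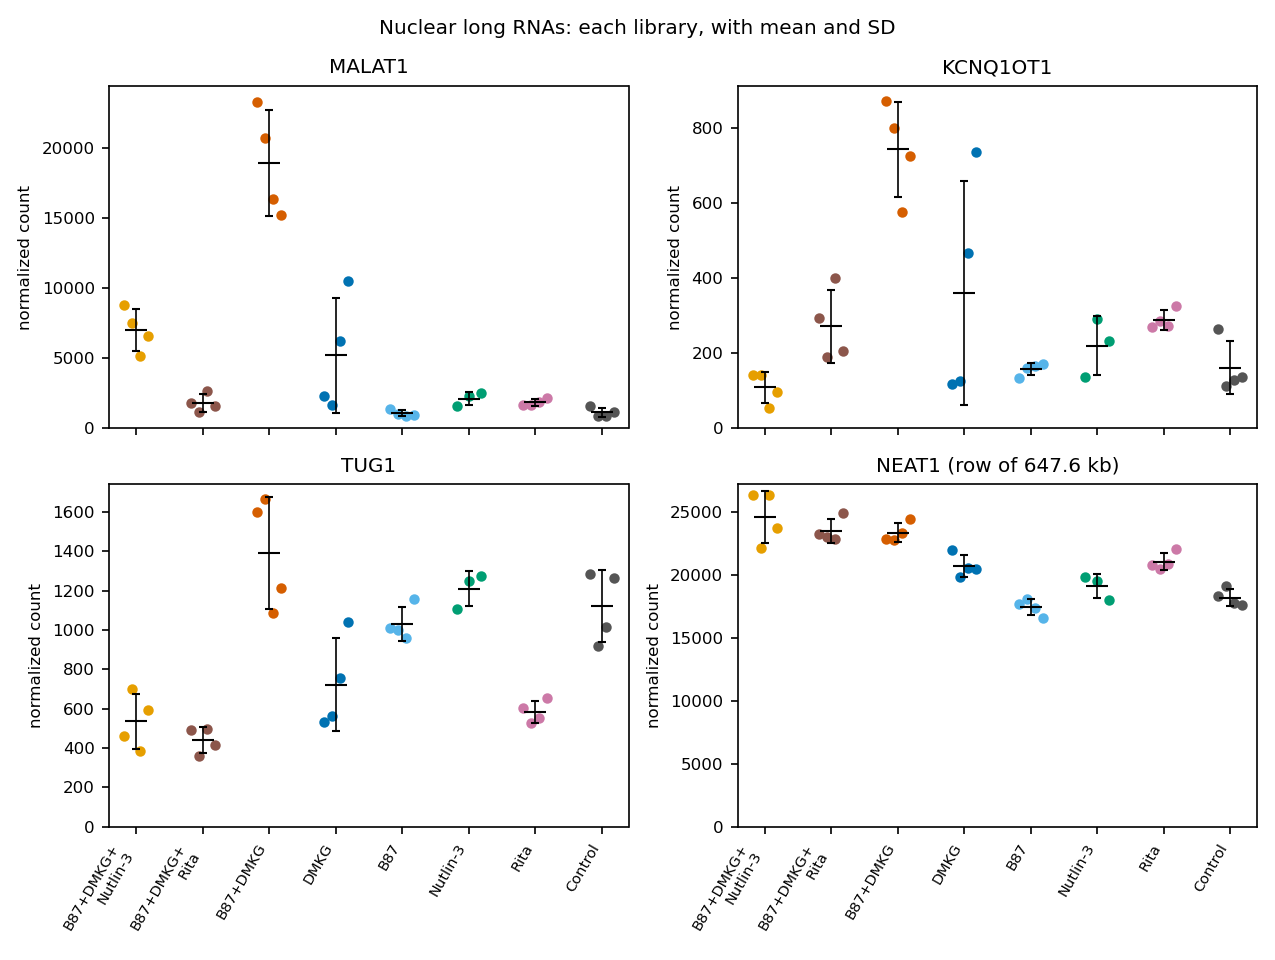
Normalized counts (vertical axes, from 0) of the 4 nuclear long RNAs in each library (points) of the 8 groups (horizontal axis), with the mean and SD in black. MALAT1 in B87+DMKG sits between 15214 and 23333, above every library of the other groups, and the DMKG libraries are spread over 1700 to 10531.

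The CLK1 row and CLK4 rose in DMKG cells, while in B87+DMKG cells CLK4 fell and the CLK1 row was not called. CLK4, whose kinase phosphorylates SR proteins, had 919, 819, 892 and 876 normalized counts in DMKG libraries, against 387, 421, 498 and 441 in Control (1.01 ± 0.14, limma adjusted p = 8.4e-07). In B87+DMKG it had 235, 285, 267 and 247, below every Control library (-0.75 ± 0.14, limma adjusted p = 3.2e-05). With Nutlin-3 added to that it had 140, 194, 113 and 157 (-1.55 ± 0.14 against Control, limma adjusted p = 6.9e-11), the lowest group. The order of CLK4 was therefore the same in every pair of libraries of these groups, DMKG over Control over B87+DMKG over B87+DMKG+Nutlin-3. The CLK1 row had 3467, 3364, 4996 and 5230 in DMKG libraries, against 1882, 1908, 1912 and 2005 in Control (1.12 ± 0.13, limma adjusted p = 7e-08). In B87+DMKG it had 2138, 2293, 1692 and 1451, on both sides of Control (-0.05 ± 0.13, interval -0.32 to 0.23, limma adjusted p = 0.772). B87+DMKG+Nutlin-3 libraries, at 803, 1097, 906 and 1050, lay below Control without overlap (-1.01 ± 0.13, limma adjusted p = 1.7e-07).

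CCNL2 and CCNL1, the L-type cyclins, both rose in B87+DMKG cells, and with Nutlin-3 added CCNL1 was above Control while CCNL2 was below it. CCNL2 had 744, 832, 955 and 1054 normalized counts in B87+DMKG libraries, against 402, 394, 415 and 442 in Control, with no overlap (1.10 ± 0.22, limma adjusted p = 8.6e-05). It had 269, 283, 286 and 270 in B87+DMKG+Nutlin-3, below Control (-0.57 ± 0.22, limma adjusted p = 0.0277). That call is lost without Control replicate 4 (limma adjusted p = 0.0617) or without B87+DMKG+Nutlin-3 replicate 1 or 4 (0.0537 and 0.0512), with no filter (0.0614) and under quantile normalization (-0.31, limma adjusted p = 0.218). In B87+DMKG+Rita it had 262, 119, 207 and 251 (-1.04 ± 0.22, limma adjusted p = 0.00018). CCNL1 had 1077, 1082, 1086 and 1209 in B87+DMKG+Nutlin-3, above the 872, 842, 769 and 837 of Control (0.42 ± 0.12, limma adjusted p = 0.00403, and 0.0729 at the same total per library). In B87+DMKG+Rita it had 741, 527, 770 and 747, where only replicate 3 reached the lowest Control library (-0.27 ± 0.12, limma adjusted p = 0.0612, and -0.52 with 5.7e-04 at the same total per library). Its rise in B87+DMKG (0.31 ± 0.12, limma adjusted p = 0.0285) is not called without Control replicate 3, B87+DMKG replicate 2 or B87+DMKG replicate 3 (limma adjusted p of 0.0788, 0.124 and 0.0616).

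PNISR, a serine- and arginine-rich splicing-related protein gene, had 2736, 2719, 2089 and 1791 normalized counts in B87+DMKG libraries, against 838, 915, 810 and 936 in Control. The groups do not overlap (1.39 ± 0.21, limma adjusted p = 1.5e-06). B87+DMKG+Nutlin-3 libraries had 641, 774, 550 and 723, each below Control, though the difference was not called (-0.39 ± 0.21, limma adjusted p = 0.116, and -0.55 with 0.031 at the same total per library). NKTR, which encodes a large cyclophilin-related protein first described in natural killer cells, had 1050, 812, 625 and 697 in B87+DMKG and 650, 397, 508 and 550 in Control. These overlap through B87+DMKG replicate 3 (0.59 ± 0.26, limma adjusted p = 0.0543, and 0.70 with 0.0375 without Control replicate 1). In B87+DMKG+Nutlin-3 it had 211, 275, 120 and 273 and in B87+DMKG+Rita 240, 196, 272 and 216. Both triple treatments lay below Control without overlap, at -1.31 ± 0.26 (limma adjusted p = 9.8e-05) and -1.17 ± 0.26 (limma adjusted p = 0.00033).

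**Figure D2:**
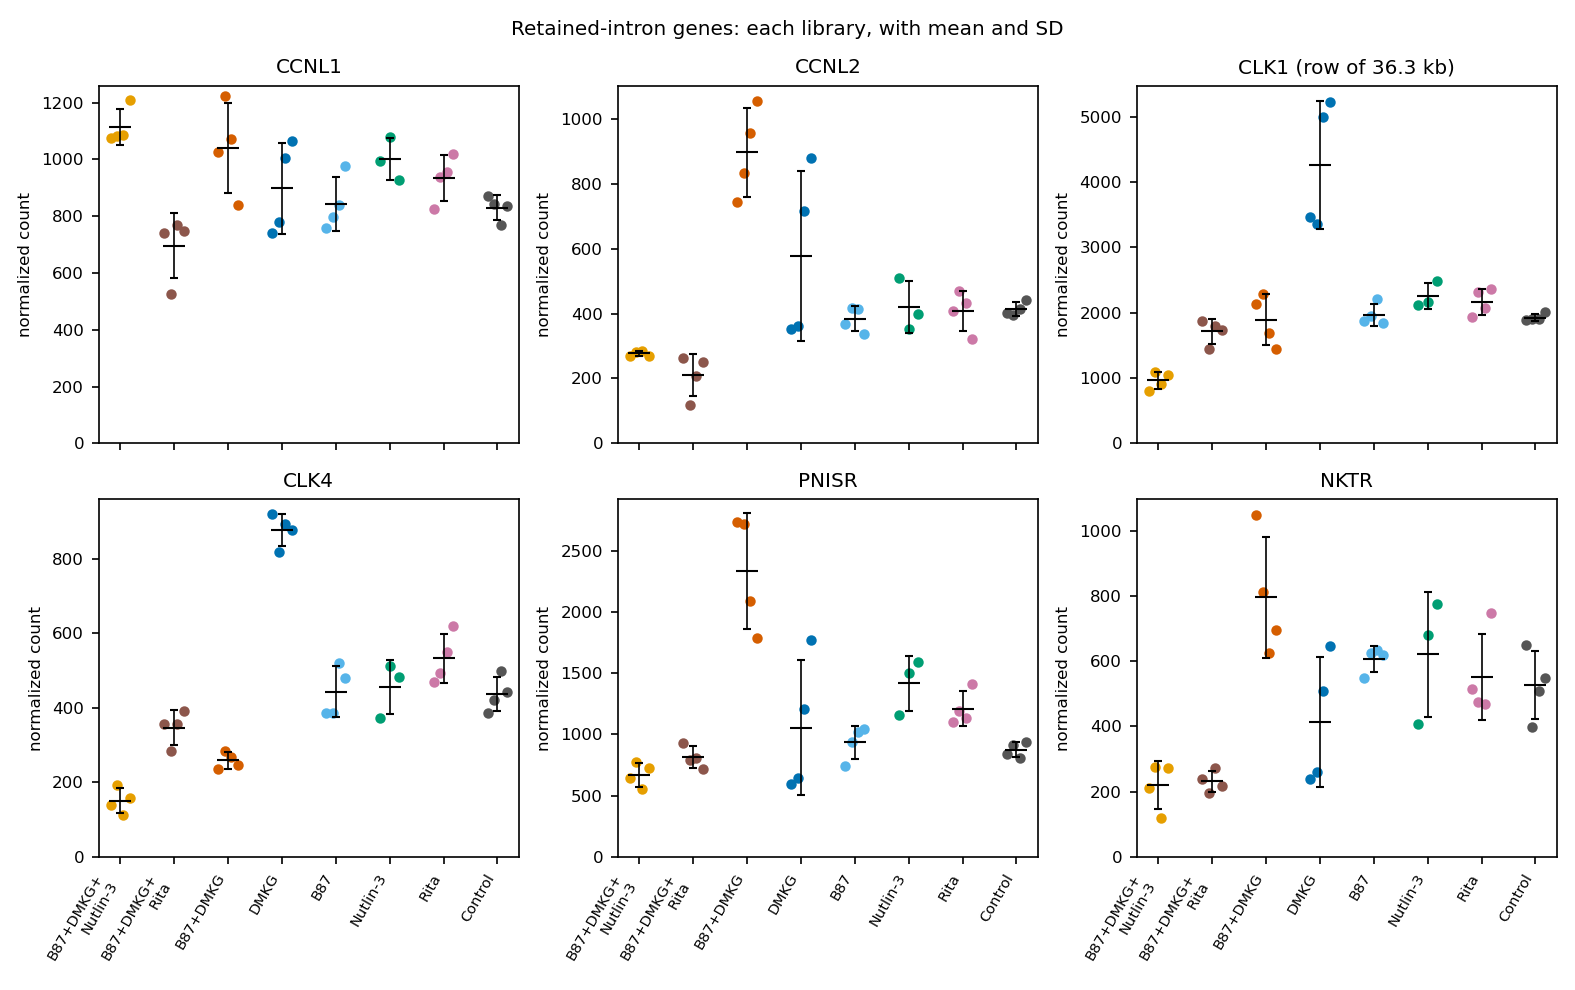
Normalized counts (vertical axes, from 0) of the 6 genes known for retained introns in each library (points) of the 8 groups (horizontal axis), with the mean and SD in black. The CLK1 row and CLK4 are highest in DMKG, while CCNL2, PNISR and NKTR have their highest mean in B87+DMKG and CCNL1 in B87+DMKG+Nutlin-3.

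Set against all rows, the share of the 10 genes called was close to that of the table in most comparisons with Control. The 10 genes were chosen with earlier results of these data known, so their shares and medians are no independent test. With B87+DMKG, 7 were called (6 higher, and CLK4 lower), against 61.0% of the 16259 rows tested. Their median log2 fold change was 0.47, against 0.005 over the rows, and MALAT1 stood at the 99.6th percentile. With B87+DMKG+Nutlin-3, 8 were called (3 higher and 5 lower), against 58.0% of rows, with a median of -0.57 against 0.024. With B87+DMKG+Rita, 5 were called (the NEAT1 row higher and 4 lower), against 60.1% of rows, with a median of -0.22 against 0.006. CLK4 is among those 4 (-0.33 ± 0.14, limma adjusted p = 0.0403) and is not called without B87+DMKG+Rita replicate 1, 2 or 3 or without Control replicate 2, 3 or 4. It is not called either with no filter (limma adjusted p = 0.073) or under quantile normalization (-0.10, limma adjusted p = 0.543).

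No gene of the set was called in B87 cells. By limma 0 of 10 were called, against 0.0431% of rows, and 0 had an unadjusted p under 0.05, with 0 also by edgeR and by DESeq2. The log2 fold changes ran from -0.11 (CCNL2 and TUG1) to 0.22 ± 0.26 (NKTR). For MALAT1 the interval was -0.75 to 0.64 with 4 libraries against 4, so a change within it is not excluded. A call needed an adjusted p under 0.05 over all rows, so a change somewhat beyond the interval could also go uncalled.

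Few were called in cells given Nutlin-3 or Rita alone. In Nutlin-3 cells MALAT1 had 1574, 2309 and 2507 normalized counts, overlapping Control through replicate 1 (0.92 ± 0.37, limma adjusted p = 0.0464). PNISR had 1162, 1498 and 1593, each above Control (0.68 ± 0.23, limma adjusted p = 0.0177). These were the 2 genes called, both higher, against 39.1% of rows called and 18.5% called higher. MALAT1's call is lost without Control replicate 2, 3 or 4, leaving 1 gene, and both calls are lost without Nutlin-3 replicate 2 or 3, leaving 0 by limma. In Rita cells the NEAT1 row (0.21 ± 0.06, limma adjusted p = 0.00233) and TUG1, which fell, were the 2 called, against 52.1% of rows. MALAT1 had 1706, 1705, 1857 and 2200 in Rita libraries, each above every Control library, and was not called (0.75 ± 0.34, limma adjusted p = 0.0647). KCNQ1OT1 had 269, 286, 272 and 326, also each above Control, and was not called (0.92 ± 0.40, limma adjusted p = 0.0535). Without Control replicate 1 both pass (0.94 with limma adjusted p = 0.0336 and 1.18 with 0.0202), and 4 genes are called. With only the groups compared MALAT1 (SE 0.16, limma adjusted p = 0.00137) and KCNQ1OT1 (SE 0.21, limma adjusted p = 0.0021) pass too. PNISR (limma adjusted p = 5.7e-04) and CLK4 (0.0379) are then called as well. Under quantile normalization MALAT1 and KCNQ1OT1 pass again, with limma adjusted p of 0.0392 and 0.0291.

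**Figure D3:**
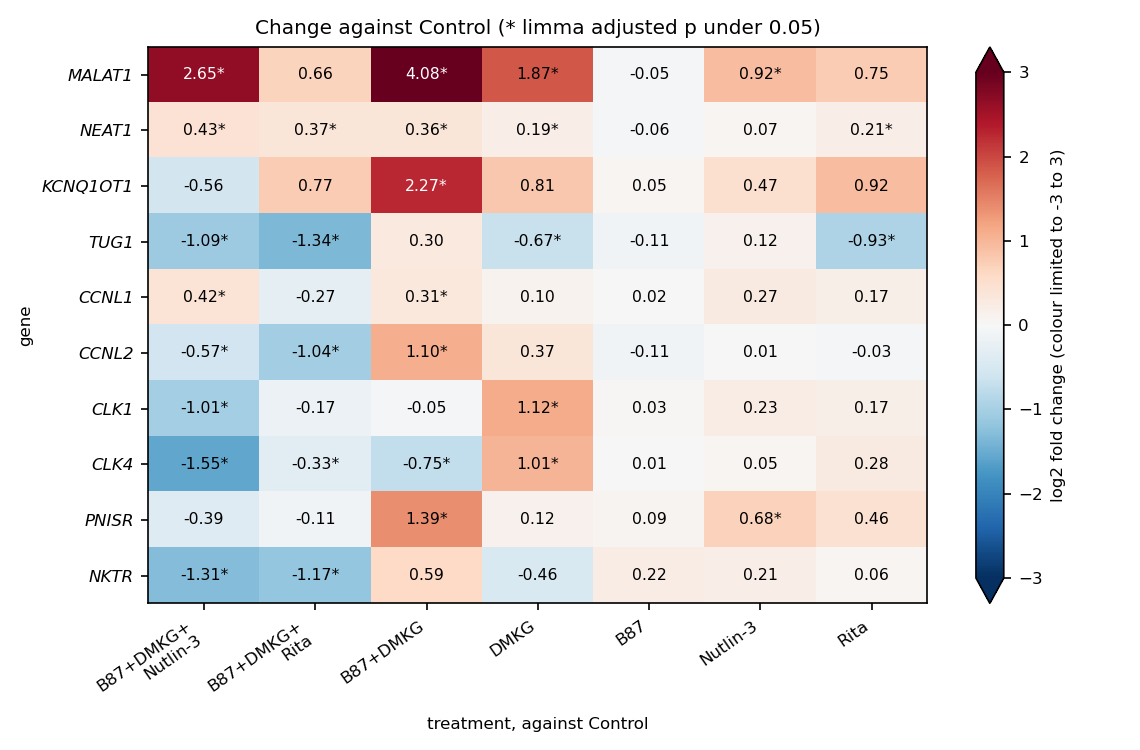
Log2 fold changes against Control of the 10 genes (rows) in the 7 treatment groups (columns), with red for higher, blue for lower and a star where the limma adjusted p is under 0.05. MALAT1 is at 4.08 in B87+DMKG and 2.65 in B87+DMKG+Nutlin-3, and the column of B87 holds no star.

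In DMKG cells MALAT1, the CLK1 row, CLK4 and the NEAT1 row rose and TUG1 fell, so 5 were called, against 41.4% of rows, with a median of 0.28 against 0.027. KCNQ1OT1 had 117, 125, 466 and 734 normalized counts in replicates 1 to 4, CCNL2 351, 363, 716 and 879, PNISR 593, 647, 1211 and 1770 and NKTR 238, 260, 508 and 647. Replicates 3 and 4 of DMKG were thus above replicates 1 and 2 in each of these. CLK4 was level over the 4 libraries, with an SD of 0.071 on the log2 scale, against 1.336 for KCNQ1OT1 and 1.225 for MALAT1.

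The calls in DMKG moved with these pairs of libraries. Without DMKG replicates 1 and 2, MALAT1 was at 2.88 ± 0.27 against Control (limma adjusted p = 1.1e-09), and without replicates 3 and 4 at 0.85 ± 0.26 (limma adjusted p = 0.0144). PNISR turned round: 0.74 ± 0.17 (limma adjusted p = 0.00101) without replicates 1 and 2, and -0.50 ± 0.16 (limma adjusted p = 0.022) without replicates 3 and 4. KCNQ1OT1 was 1.94 ± 0.34 (limma adjusted p = 3.2e-05) without the first pair and -0.33 ± 0.33 (limma adjusted p = 0.486) without the second, and CCNL2 0.94 (5.3e-04) and -0.21 (0.469). NKTR was called only as lower, at -1.06 ± 0.27 (limma adjusted p = 0.0032), without replicates 3 and 4. TUG1's fall was -0.32 ± 0.19 (limma adjusted p = 0.188) without replicates 1 and 2 and -1.02 ± 0.19 (limma adjusted p = 1.1e-04) without 3 and 4. CLK4 stayed at 1.02 and 0.99 and the CLK1 row at 1.41 and 0.83, each of them called.

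When B87 was added to DMKG, 9 genes were called, 7 higher and 2 lower, against 60.1% of rows, with a median of 0.86 against 0.022. The CLK1 row and CLK4 were the lower ones, at -1.17 ± 0.13 (limma adjusted p = 1.3e-08) and -1.76 ± 0.14 (limma adjusted p = 7e-12), and CLK4 lay at the 1.9th percentile of rows. MALAT1 was higher by 2.21 ± 0.34 (limma adjusted p = 2e-06), PNISR by 1.27 ± 0.21 (limma adjusted p = 6.8e-06), NKTR by 1.05 ± 0.26 (limma adjusted p = 0.00112) and TUG1 by 0.97 ± 0.18 (limma adjusted p = 2.6e-05). Without DMKG replicates 1 and 2 the count was 6, since KCNQ1OT1 (0.33), CCNL2 (0.16) and NKTR (0.44) were no longer called. MALAT1 was then higher by 1.20 ± 0.27 (limma adjusted p = 5.5e-04), PNISR by 0.65 ± 0.17 (limma adjusted p = 0.00271) and TUG1 by 0.63 ± 0.19 (limma adjusted p = 0.00815). Without replicates 3 and 4 the count was again 9, with MALAT1 at 3.23, PNISR at 1.89, NKTR at 1.65 and TUG1 at 1.32, while the NEAT1 row was no longer called (0.16, limma adjusted p = 0.0513) and CCNL1 was (0.44, limma adjusted p = 0.00756). CLK4 was at -1.77 and -1.75 without the first and the second pair, and the CLK1 row at -1.46 and -0.87.

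The effect of the combination was then set against the sum of the effects of B87 and DMKG alone on the log2 scale. It differed from that sum for 8 genes, against 48.8% of rows, for 6 without DMKG replicates 1 and 2 and for 10 without replicates 3 and 4. No gene of the set was called in B87 alone, so this contrast is close to that of B87+DMKG against DMKG. Both use the same B87+DMKG and DMKG libraries, and MALAT1 was at 2.27 here and 2.21 there, CLK4 at -1.77 and -1.76. MALAT1 exceeded the sum by 2.27 ± 0.48 (limma adjusted p = 0.00028), PNISR by 1.18 ± 0.30 (limma adjusted p = 0.00167) and TUG1 by 1.08 ± 0.25 (limma adjusted p = 0.00072). CLK4 lay below it, at -1.77 ± 0.20 relative to the sum (limma adjusted p = 1.9e-08), and so did the CLK1 row, at -1.19 ± 0.19 (limma adjusted p = 6.6e-06). Without DMKG replicates 1 and 2 MALAT1 still exceeded it, by 1.25 ± 0.35 (limma adjusted p = 0.00502), and without 3 and 4 by 3.28 ± 0.34 (limma adjusted p = 7.9e-09). PNISR exceeded it by 0.56 ± 0.23 (limma adjusted p = 0.0444) and 1.80 ± 0.21 (limma adjusted p = 6.5e-08) in these settings, and TUG1 by 0.74 ± 0.25 (limma adjusted p = 0.0185) and 1.43 ± 0.24 (limma adjusted p = 1.6e-05). KCNQ1OT1 (1.41 ± 0.56, limma adjusted p = 0.038) and CCNL2 (0.85 ± 0.31, limma adjusted p = 0.0263) were not called without replicates 1 and 2, at 0.28 and 0.27 with limma adjusted p of 0.634 and 0.431. Without DMKG replicate 1 alone these were 1.02 (limma adjusted p = 0.118) and 0.65 (0.0809).

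Adding Nutlin-3 to B87+DMKG lowered 8 of the 10 genes, and the NEAT1 row and CCNL1 were not called. Lower calls made up 32.3% of rows and calls in either direction 58.9%, and the genes' median was -1.41, against -0.052. KCNQ1OT1 had the largest fall, -2.83 ± 0.40 (limma adjusted p = 5.2e-07), at the 1.4th percentile. NKTR fell by 1.90 ± 0.26 (limma adjusted p = 4.7e-07), PNISR by 1.78 ± 0.21 (limma adjusted p = 3e-08), CCNL2 by 1.68 ± 0.22 (limma adjusted p = 2e-07) and MALAT1 by 1.43 ± 0.34 (limma adjusted p = 0.00066) on the log2 scale. TUG1, the CLK1 row and CLK4 fell by 1.39, 0.96 and 0.80. For each of these 8 genes every B87+DMKG+Nutlin-3 library lay below every B87+DMKG library, as was the case for 27.2% of all rows.

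Adding Rita lowered 7 and raised CLK4, against 34.2% of rows lower and 67.3% in either direction, with a median of -1.50 against 0.001. MALAT1 fell by 3.42 ± 0.34 (limma adjusted p = 4.6e-10), to the 1.6th percentile, and CCNL2 changed by -2.14 ± 0.22 (limma adjusted p = 1e-09). NKTR was at -1.76, TUG1 at -1.65, PNISR and KCNQ1OT1 at -1.50 each and CCNL1 at -0.58, all called. CLK4 had 356, 283, 357 and 392 normalized counts with Rita added, against 235, 285, 267 and 247 in B87+DMKG, where replicate 2 of each overlaps (0.42 ± 0.14, limma adjusted p = 0.0101, and 0.18 with 0.291 at the same total per library). The CLK1 row was not called (-0.13 ± 0.13, interval -0.40 to 0.15, limma adjusted p = 0.417, and -0.37 with 0.0186 at the same total).

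The compounds were compared directly in the presence of B87+DMKG, at 30 µM Nutlin-3 and 50 µM Rita, doses that differ. With Nutlin-3 rather than Rita, MALAT1 was higher by 1.99 ± 0.34 (limma adjusted p = 1.2e-05) and CCNL1 by 0.69 ± 0.12 (limma adjusted p = 2e-05). KCNQ1OT1 was lower, at -1.33 ± 0.40 (limma adjusted p = 0.00581), as were CLK4, at -1.21 ± 0.14 (limma adjusted p = 1.2e-08), and the CLK1 row, at -0.83 ± 0.13 (limma adjusted p = 4.4e-06). These 5 compare with 48.3% of rows. For TUG1 (0.26, interval -0.11 to 0.62), NKTR (-0.13, -0.67 to 0.41) and PNISR (-0.28, -0.71 to 0.15) no difference was called. CCNL2 (0.46, interval 0.01 to 0.92, limma adjusted p = 0.0866) and the NEAT1 row (0.06, interval -0.05 to 0.18, limma adjusted p = 0.375) were not called either. At the same total per library both were (0.56 with limma adjusted p = 0.0416 and 0.16 with 0.00992), as was the NEAT1 row under quantile normalization (0.21, limma adjusted p = 0.00132) and CCNL2 without B87+DMKG+Rita replicate 1 (0.59, limma adjusted p = 0.0416).

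**Figure D4:**
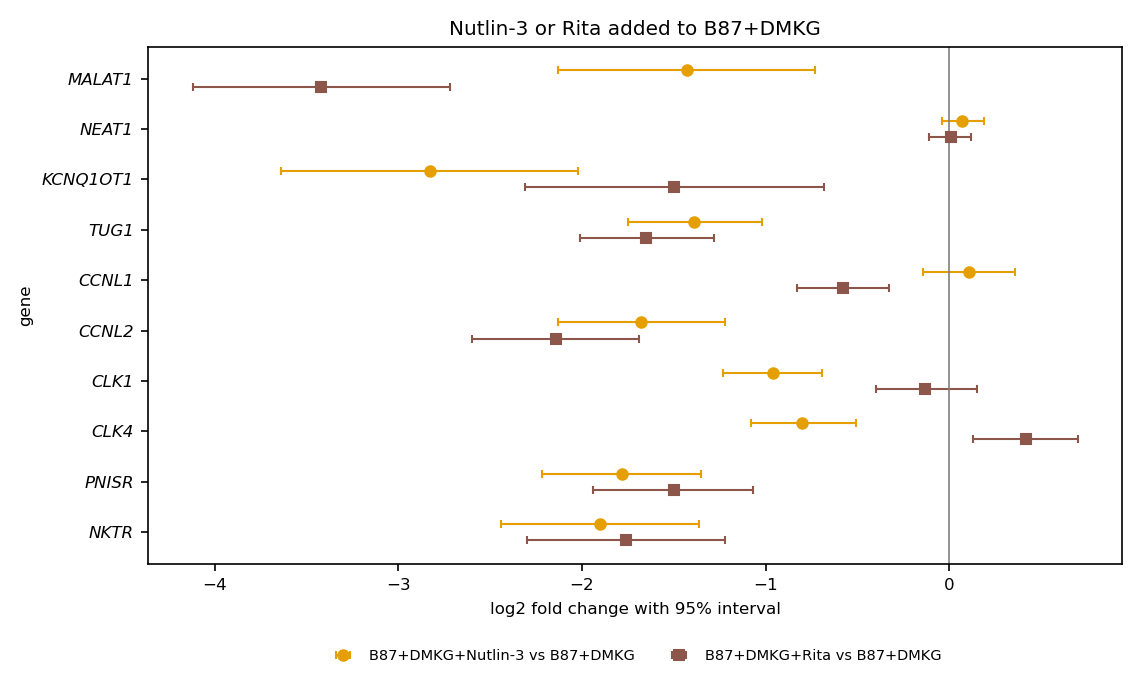
Log2 fold changes with 95% intervals (horizontal axis) of the 10 genes (vertical axis) when Nutlin-3 (circles) or Rita (squares) was added to B87+DMKG. MALAT1 is at -1.43 with Nutlin-3 and -3.42 with Rita, KCNQ1OT1 at -2.83 and -1.50, and CLK4 at -0.80 and 0.42.

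The effect of Nutlin-3 was more negative with B87+DMKG present than without it for 8 genes, against 30.6% of rows lower and 56.9% in either direction. The difference was -3.29 ± 0.58 for KCNQ1OT1 (limma adjusted p = 2.1e-05), -2.47 ± 0.31 for PNISR (limma adjusted p = 1.1e-07) and -2.35 ± 0.50 for MALAT1 (limma adjusted p = 0.00022). For Rita it was again 8 genes, against 24.4% of rows lower and 48.6% in either direction, here with the NEAT1 row and CCNL1 in place of the CLK pair. MALAT1 was at -4.17 ± 0.48 (limma adjusted p = 4.2e-08) and CCNL2 at -2.11 ± 0.31 (limma adjusted p = 2.4e-06). CLK4 (0.13 ± 0.20) and the CLK1 row (-0.29 ± 0.19) were not called for Rita, with limma adjusted p of 0.607 and 0.21. These contrasts share the B87+DMKG and Control libraries with the comparisons above.

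Rows beside those of the 10 genes on the chromosome were set next to them. FRMD8, the nearest row with a symbol before MALAT1's apart from the NEAT1 row, was not called in B87+DMKG (-0.26 ± 0.16, limma adjusted p = 0.15), against 4.08 for MALAT1. MORC2, a chromatin-silencing ATPase gene whose row ends 924 bases before TUG1's, moved on the same side as TUG1 in the 4 comparisons set side by side: -0.58 and -0.67 in DMKG, 0.96 and 0.30 in B87+DMKG, -0.87 and -1.39 with Nutlin-3 added and -1.48 and -1.65 with Rita added (MORC2 first). The 0.30 of TUG1 was not called. NKTR and SEC22C, a vesicle-trafficking gene, have overlapping rows and went opposite ways with the compounds: SEC22C was at 0.56 and 0.77 where NKTR was at -1.90 and -1.76. PNISR's row overlaps that of COQ3, a coenzyme Q synthesis gene, which was at -0.20 ± 0.09 in B87+DMKG (limma adjusted p = 0.056). NIF3L1, whose row starts 51 bases after the CLK1 row, was at -0.62 in DMKG, where the CLK1 row was at 1.12, at -0.24 in B87+DMKG (CLK1 row -0.05), at -0.53 with Nutlin-3 added (-0.96) and at -0.55 with Rita added (-0.13). Whether reads were counted by strand is not given in the sources used here. Overlapping rows, that of MALAT1 and the NEAT1 row included, may therefore share reads.

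Across the 8 group means of log2 values, the CLK1 row and CLK4 had r = 0.94, TUG1 and NKTR 0.86, KCNQ1OT1 and PNISR 0.85 and CCNL2 and PNISR 0.81. MALAT1 had 0.71 with the NEAT1 row, which spans MALAT1's row and may share its reads. MALAT1 also had 0.64 with CCNL1, 0.53 with KCNQ1OT1 and CCNL2 and -0.47 with CLK4. These are descriptions over 8 points that share 1 normalization. Among 11148 rows with 1 symbol and a mean of at least 50, those most like MALAT1 were C6orf136 (r = 0.984), DMWD (0.980), P3H2-AS1 (0.979), FAM66A (0.976), SMAGP (0.976) and SLC12A4 (0.975). Their changes were far smaller, between 0.38 (FAM66A) and 1.59 (SMAGP) in B87+DMKG. The rows most like the CLK1 row were CKAP4 (0.959), AHR (0.957), MCL1 (0.951), GDAP1 (0.946), CLK4 (0.943) and LRRC8A (0.939). MCL1, the gene of a short-lived survival protein, was at 0.79 in DMKG and -0.47 in B87+DMKG, and CLK4 at 1.01 and -0.75. The list for TUG1 was STK4 (0.983), ZNF70 (0.982), EPM2AIP1 (0.976), FAM72A (0.976), RBM23 (0.972) and GIT2 (0.970). EPM2AIP1 was at -0.84 in DMKG and 0.86 in B87+DMKG. For the NEAT1 row it was PPP1R35 (0.991), STX4 (0.991), HSPB1 (0.986), PTK6 (0.984), ATP6V0E2 (0.983) and TNNT1 (0.977).

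Other genes of nuclear RNA metabolism were counted by list, with the shares of all rows tested beside them. The lists were chosen with earlier results of these data known, so the counts are no independent test. A share unlike that of all rows may come from the choice of genes. Of all rows tested 30.2% rose and 30.8% fell in B87+DMKG against Control, 61.0% in all. With Nutlin-3 added to B87+DMKG 26.5% rose and 32.3% fell, and with Rita added 33.1% rose and 34.2% fell. Of 25 other genes known for retained introns, 19 rose and 3 fell in B87+DMKG cells against Control, with a median of 0.67 against 0.005 over all rows. GOLGA8A (4.03 ± 0.45, limma adjusted p = 5.9e-09), GOLGA8B (2.82 ± 0.36, limma adjusted p = 7.9e-08) and PILRB (2.43 ± 0.33, limma adjusted p = 2.5e-07) changed most. The first pair are near-identical copies and the rows of GOLGA8B and PILRB hold further genes, so these values are uncertain. With Nutlin-3 added to B87+DMKG 17 of the 25 fell and 2 rose (median -0.54), and with Rita added 15 fell and 4 rose (median -0.55). GOLGA8A was at -3.09 with Nutlin-3 and -4.75 with Rita.

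Speckle and spliceosome-associated genes were mixed in B87+DMKG, with 11 of 22 higher and 5 lower (median 0.20), against 30.2% and 30.8% of all rows. RBM39, a splicing coactivator, fell by 1.76 ± 0.10 (limma adjusted p = 4.5e-15), while SRRM2 and SRRM1, which encode structural proteins of speckles and the spliceosome, rose by 1.56 ± 0.22 (limma adjusted p = 3.2e-07) and 1.41 ± 0.14 (limma adjusted p = 8.3e-10). With Nutlin-3 added 16 of the 22 fell and the other 6 were not called (median -0.84), with LUC7L3, a U1-associated gene, at -3.02 ± 0.22 (limma adjusted p = 1.2e-12). With Rita added 15 fell and 4 rose (median -0.39). Of the 16 kinases of SR proteins and transcription cyclins, 8 rose and 3 fell in B87+DMKG (median 0.20), CLK2 by 1.41 ± 0.13 (limma adjusted p = 3e-10). CLK2 fell by 2.46 ± 0.13 (limma adjusted p = 1.9e-15) with Nutlin-3 added.

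Of 13 SR protein genes, 9 fell and 2 rose in B87+DMKG (median -0.49), against 30.8% and 30.2% of all rows. TRA2B and TRA2A, splicing activators, fell by 1.97 ± 0.07 (limma adjusted p = 4.5e-19) and 1.87 ± 0.08 (limma adjusted p = 2e-18), and SRSF5 rose by 1.73 ± 0.12 (limma adjusted p = 7.7e-13). With Rita added 7 of the 13 rose and 2 fell (median 0.38, and 0.14 with 6 higher and 3 lower at the same total per library), TRA2B by 2.03 ± 0.07 (limma adjusted p = 1e-19). With Nutlin-3 added 8 fell and 3 rose (median -0.35), SRSF1, a founding member of the family, was at -2.46 ± 0.12 (limma adjusted p = 1.7e-16), and TRA2B fell further, by 1.23 ± 0.07 (limma adjusted p = 1.8e-14).

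Of 19 genes of the nuclear exosome, which degrades RNA in the nucleus, and its adaptors, 9 fell and 2 rose in B87+DMKG (median -0.27), a total near the 61.0% called over all rows. RBM7, of the adaptor that targets noncoding transcripts, fell by 1.74 ± 0.12 (limma adjusted p = 3.4e-13) and DIS3, a catalytic subunit, by 1.15 ± 0.09 (limma adjusted p = 3.6e-12). With Nutlin-3 added 14 rose and 3 fell (median 0.36, and 0.21 with 9 higher and 5 lower at the same total per library), RBM7 by 1.03 ± 0.12 (limma adjusted p = 2.1e-08), and with Rita added 9 rose and 7 fell (median 0.05, which turns to -0.19 with 6 higher and 9 lower at the same total). That scaling moves the median of all rows to -0.195 with Nutlin-3 added and to -0.239 with Rita added. Of 10 genes of RNA methylation and MALAT1 binding, 6 fell and 2 rose in B87+DMKG (median -0.35), among them KIAA1429, a subunit of the m6A writer (-1.30 ± 0.12, limma adjusted p = 1.1e-10), and ELAVL1, an RNA-stabilizing protein gene (-0.90 ± 0.08, limma adjusted p = 2.2e-11). Paraspeckle protein genes split 6 higher and 7 lower of 17 (median 0.12). The other long noncoding RNAs split 7 higher and 8 lower of 19 tested (median -0.15), with SNHG12, on a row with small nucleolar RNAs, at 2.37 ± 0.15 (limma adjusted p = 2.6e-14), DANCR at -1.66 ± 0.09 (limma adjusted p = 3.2e-15) and LINC-PINT at 1.39 ± 0.15 (limma adjusted p = 4.4e-09).

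**Figure D5:**
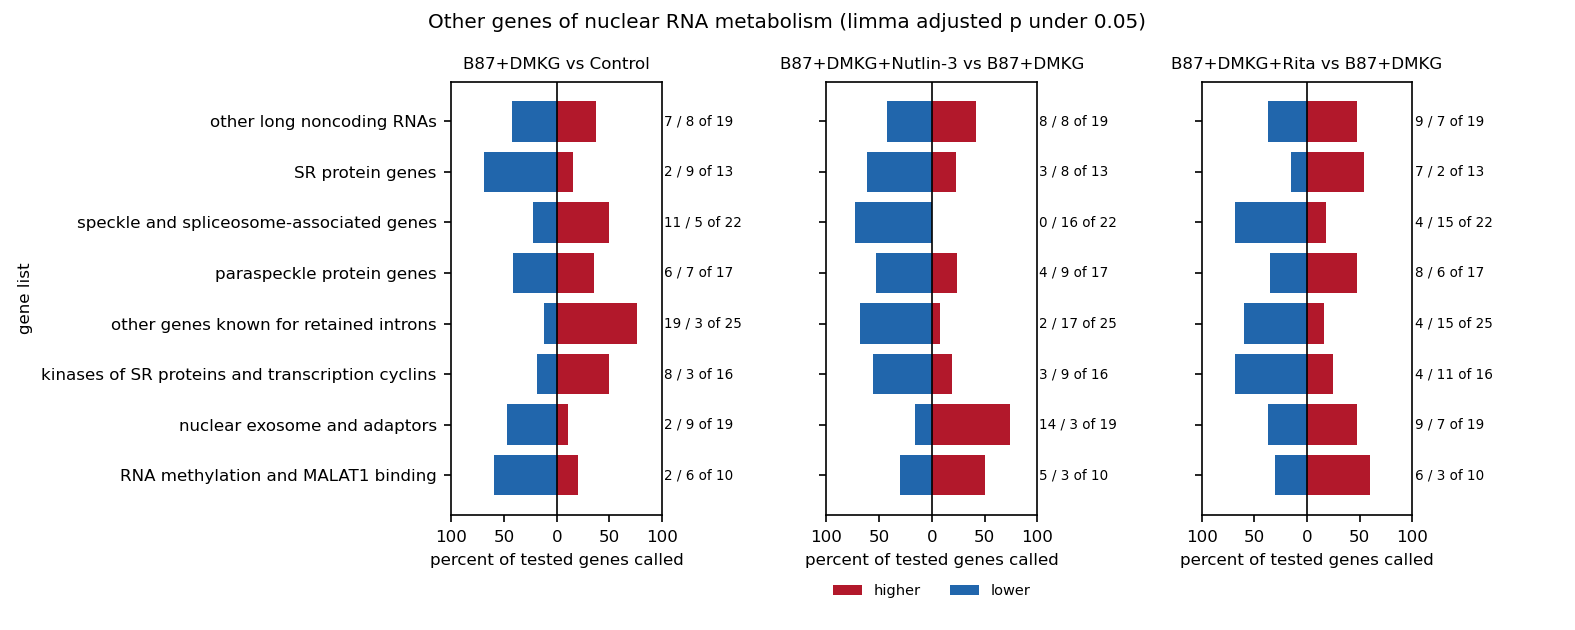
Share of the tested genes of each list (vertical axis) called higher (red, to the right) or lower (blue, to the left) in percent (horizontal axis), with the counts beside each bar, in 3 comparisons. Other genes known for retained introns are higher in 19 of 25 cases in B87+DMKG against Control and lower in 17 with Nutlin-3 and 15 with Rita added. The lists were chosen with earlier results of these data known.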

How the data were processed

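Poly(A) RNA of 31 H460 samples in 8 groups was sequenced with a stranded mRNA kit, per the labels' protocols. Alignment was with STAR 2.4.0, and DESeq2, SAMtools, Picard and FastQC are also named, per the submitters' processing notes. Those notes give the mouse build mm10, but the table's coordinates are on hg19 per the file headers, with human genes. Which counter was run, and whether by strand, is not given in the sources used here. Values in the deposited table are a signal: read counts per gene that the authors divided by 1 size factor per library, per the file headers. They hold no spike-in, so levels are relative to the RNA of each library.

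Each library's values were whole multiples of 1 step (within 0.1 step for 100.0% of 690132 values above 0, largest distance 0.000703), so whole reads were recovered. KCNQ1OT1's recovered reads were even in 31 of 31 libraries, against 13 to 21 of 31 for the other genes, so the unit may be a read end for its row.

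limma 3.58.1 in R 4.3.3, with a mean-variance trend, was run on log2(value + 1) of all 31 libraries over the 16259 rows with a mean of at least 10, with 23 residual and 7.14 prior degrees of freedom. A gene was called where its p, adjusted over all rows by Benjamini and Hochberg's method, was under 0.05, and intervals are 95% intervals. Fold changes on this scale understate the change of low genes. The code was tested on simulated data. Other settings tried were a pseudocount of 0.5 or 5, a mean of at least 50 or no filter, the same total in every library, quantile normalization, only the groups compared, a replicate block, edgeR 4.0.16 and DESeq2 1.42.0 on the recovered reads, and each library left out. Leaving out pairs of DMKG libraries was chosen after seeing the data. In B87+DMKG against Control limma called 9922 rows, edgeR 9982 and DESeq2 10113.

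The genes and lists were chosen with earlier results of these data known. Named were the 10 genes, among the 3 called genes of each list with the largest change in a comparison, the 6 rows most like a gene over group means, and the rows on either side of a gene. A neighbouring row and a marker gene are not reported here. Symbols in rows of several genes were matched by symbol. Gene lengths are from the primary assembly annotation of GENCODE 29 and were set beside the hg19 row spans as lengths only. Sequences are from RefSeq on GRCh38.p14, and no coordinate was converted between builds. Figures were drawn with matplotlib 3.10.9 under Python 3.11.15.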

Additional observations from a re-analysis of the deposited data

Results flagged for a closer look

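Of 70 sets of 4 libraries of 1 gene in 1 group, 3 held a library far from the others, measured as its gap to the nearest library over the whole range of the set. Chance flags about 1 in 20 groups. KCNQ1OT1 in Control replicate 1 stood high, with a gap of 0.836 of the range (265 normalized counts, against 113 to 138 in the other Control libraries). CCNL1 stood high in B87+DMKG+Nutlin-3 replicate 4, with a gap of 0.925 (1209, against 1077 to 1086), and low in B87+DMKG+Rita replicate 2, with a gap of 0.879 (527, against 741 to 770).

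The effect of 1 treatment differed with the presence of another in 3 contrasts, by a test of the difference itself (limma adjusted p under 0.05 in each). Beyond the sum of B87 and DMKG, the combination was at 2.27 for MALAT1, 1.41 for KCNQ1OT1, 1.18 for PNISR, 1.08 for TUG1, 0.85 for CCNL2, 0.23 for the NEAT1 row, -1.19 for the CLK1 row and -1.77 for CLK4 on the log2 scale. That of KCNQ1OT1 is not called by edgeR (1.02, adjusted p = 0.124) or DESeq2 (1.07, 0.133), with no filter (0.0824), with only the groups compared (0.0693) or without any 1 of 7 libraries (limma adjusted p of 0.0506 to 0.118). That of CCNL2 is not called by edgeR (0.69, adjusted p = 0.0578), with no filter (0.0561) or without any 1 of 4 libraries (limma adjusted p of 0.0508 to 0.0809). The effect of Nutlin-3 with B87+DMKG minus that without it was -3.29 for KCNQ1OT1, -2.47 for PNISR, -2.35 for MALAT1, -2.10 for NKTR, -1.69 for CCNL2, -1.51 for TUG1, -1.19 for the CLK1 row and -0.85 for CLK4. The same difference for Rita was -4.17 for MALAT1, -2.41 for KCNQ1OT1, -2.11 for CCNL2, -1.97 for PNISR, -1.82 for NKTR, -0.75 for CCNL1, -0.72 for TUG1 and -0.20 for the NEAT1 row. That of TUG1 is not called without Control replicate 2 or B87+DMKG+Rita replicate 2 (-0.62 in both, limma adjusted p of 0.05 and 0.0517). That of the NEAT1 row lies between -0.18 and -0.20, with limma adjusted p up to 0.0733, without any 1 of 7 libraries.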

How the results depend on the processing

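Over 1460 values of 1 gene under other settings and 1340 with 1 library left out, 1382 and 1282 kept their call or its absence. The call was lost in 32 and 39, gained in 43 and 19, and turned in 3 and 0. Turned were the NEAT1 row in B87+DMKG+Rita against B87+DMKG (-0.23 at the same total per library, -0.21 under quantile normalization) and PNISR in DMKG (-0.50 without libraries 3 and 4). A further 44 values changed sign while called under neither setting, counted here as kept. MALAT1 in B87+DMKG stayed between 3.96 and 4.27.

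The 2 genes called in Nutlin-3 became 1 with no filter, 0 at the same total by limma, 1 by edgeR and 1 by DESeq2, 3 under quantile normalization and with only the groups compared (CCNL1 gained), and 0 to 2 with a library left out. The 2 in Rita became 1 at the same total and 6 under quantile normalization and with only the groups compared, and 2 to 4 with a library left out. The 5 in B87+DMKG+Rita became 9 with only the groups compared and 4 to 7 with a library left out. The cause was not tested.

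At the same total the median of all rows moves to -0.136 in Nutlin-3, -0.148 in Rita, -0.132 in B87+DMKG+Nutlin-3 and -0.248 in B87+DMKG+Rita, each against Control, and to 0.119 in B87+DMKG against DMKG. The share of calls that are higher then is 30.5% (47.2% as deposited), 30.9% (49.4%), 33.8% (48.8%) and 27.9% (48.9%) in the first 4. It is 31.6% (47.3%) in DMKG, 61.3% (50.5%) beyond the sum, 31.9% (45.1%, and 56% under quantile normalization) with Nutlin-3 added and 32.7% (49.2%) with Rita added.

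Samples with equal replicate numbers showed no strong shared shift: over 105 pairs the correlation of deviations was -0.207 to 0.187. In 0 of 28 pairs of groups were all above 0.1. Whether equal numbers shared a day or culture cannot be told from this. The replicate block kept the count of genes called in all 14 comparisons, such as 7 in B87+DMKG against Control.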
